A study of Homo sapiens with 8 samples.

Results

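The response of C4-2 cells to 5 mM metformin was examined across all expressed genes. C4-2 is an established human prostate cancer cell line, derived from LNCaP, that grows without androgen and expresses the androgen receptor. The cells were grown in serum-containing medium and exposed for 24 h to 5 mM metformin (3 libraries) or to the PBS vehicle (3 libraries), and both groups are the same line without any genetic change between them. These are 6 of the 8 libraries of the study. Genes were included when they reached at least 1 RPKM (reads scaled to the length of the gene and to the mapped reads of the library) in at least 3 of the 6 libraries, which left 11730 of 57773 gene features. Metformin is a biguanide used to treat type 2 diabetes. At millimolar levels it slows complex I of the mitochondrial respiratory chain, and the resulting fall in energy charge activates AMP-activated protein kinase. Cells under such stress are known to adjust protein folding, translation and nutrient use through several transcriptional programs, among them the heat shock response, driven by the factor HSF1, and the integrated stress response, driven by the factor ATF4.

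Changes are given as log2 changes, metformin minus PBS, on the scale log2(RPKM + 0.1) after each library was centred on its median gene. This scale understates the changes of low genes. A gene was called higher or lower when its change exceeded 1.5-fold by limma's treat test at a Benjamini-Hochberg adjusted p under 0.05 over all 11730 genes. The median change of all genes was -0.12 on this scale and -0.30 in the RPKM as deposited, so the medians of gene groups below are given minus that of all genes. The metformin libraries held 14169196 to 15898491 mapped reads and the PBS libraries 13837455 to 44774670, the highest number belonging to PBS replicate 1. Whether some of its reads are also those of PBS replicates 2 and 3 was not tested; shared reads would make the spread of the PBS group and the p-values too small. Without it 1689 genes were higher and 2298 lower, against 1852 and 2559 with it. Gene features took 72% to 75.1% of the reads with metformin and 77.2% to 78.6% with PBS. Of 16 prostate luminal markers, all were measurable and 12 were lower and 1 higher with metformin, and their summed level was 675.0 to 736 RPKM with metformin and 1764 to 1959 RPKM with PBS. Markers of other cell types were low: 1 of 8 basal, 1 of 10 neuroendocrine, 1 of 11 stromal and endothelial and 0 of 11 immune markers reached the expression limit. Their summed levels were 12.9 to 14.4 RPKM with metformin and 16.5 to 20.5 RPKM with PBS for the basal list, 1.46 to 1.84 RPKM with metformin and 4.57 to 4.86 RPKM with PBS for the neuroendocrine list, 2.83 to 3.08 RPKM with metformin and 2.91 to 3.13 RPKM with PBS for the stromal list, and 1.02 to 1.54 RPKM with metformin and 1.32 to 4.18 RPKM with PBS for the immune list. PTPRC, CD3E, MS4A1, CDH5, INSM1 and NEUROD1 were listed at 0 in all 6 libraries. A lower level of an RNA in fewer cells and less of it per cell cannot be told apart in bulk libraries. No source used here says if the 3 replicates of a group came from separate cultures. The p-values therefore cover only how far these libraries vary, in part perhaps for technical reasons.

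With metformin 1852 genes were higher (15.8% of those tested) and 2559 were lower (21.8%), 37.6% in all. Against no change instead of 1.5-fold, limma's eBayes test called 82.3%, and in 84.5% the RPKM of the 3 metformin and the 3 PBS libraries did not overlap. Changes of at least 4-fold were seen for 318 of the higher and 514 of the lower genes. The balance between the directions depended on the level of the genes. Among the 6685 genes with a mean of at least 5 RPKM, 1287 were higher and 925 lower, whereas of the 1173 genes with the lowest mean RPKM 8.44% were higher and 46.5% lower. The expression limit bears on these counts: 1080 genes passed it in all 3 PBS libraries and in no metformin library (864 called lower), and 193 passed it in all 3 metformin libraries and in no PBS library (176 called higher). The share of higher genes among the called ones was 42%, against 38.4% with no filter on low values, 29.4% without centring, 49.6% with quantile normalization, 50.4% when the median change of all genes was set to 0 and 58.2% when only genes with a mean of at least 5 RPKM were tested. Of the 1173 shortest genes 5.54% were higher and 30.5% lower, and of the 1173 longest 23.4% were higher and 12.4% lower.

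**Figure D1:**
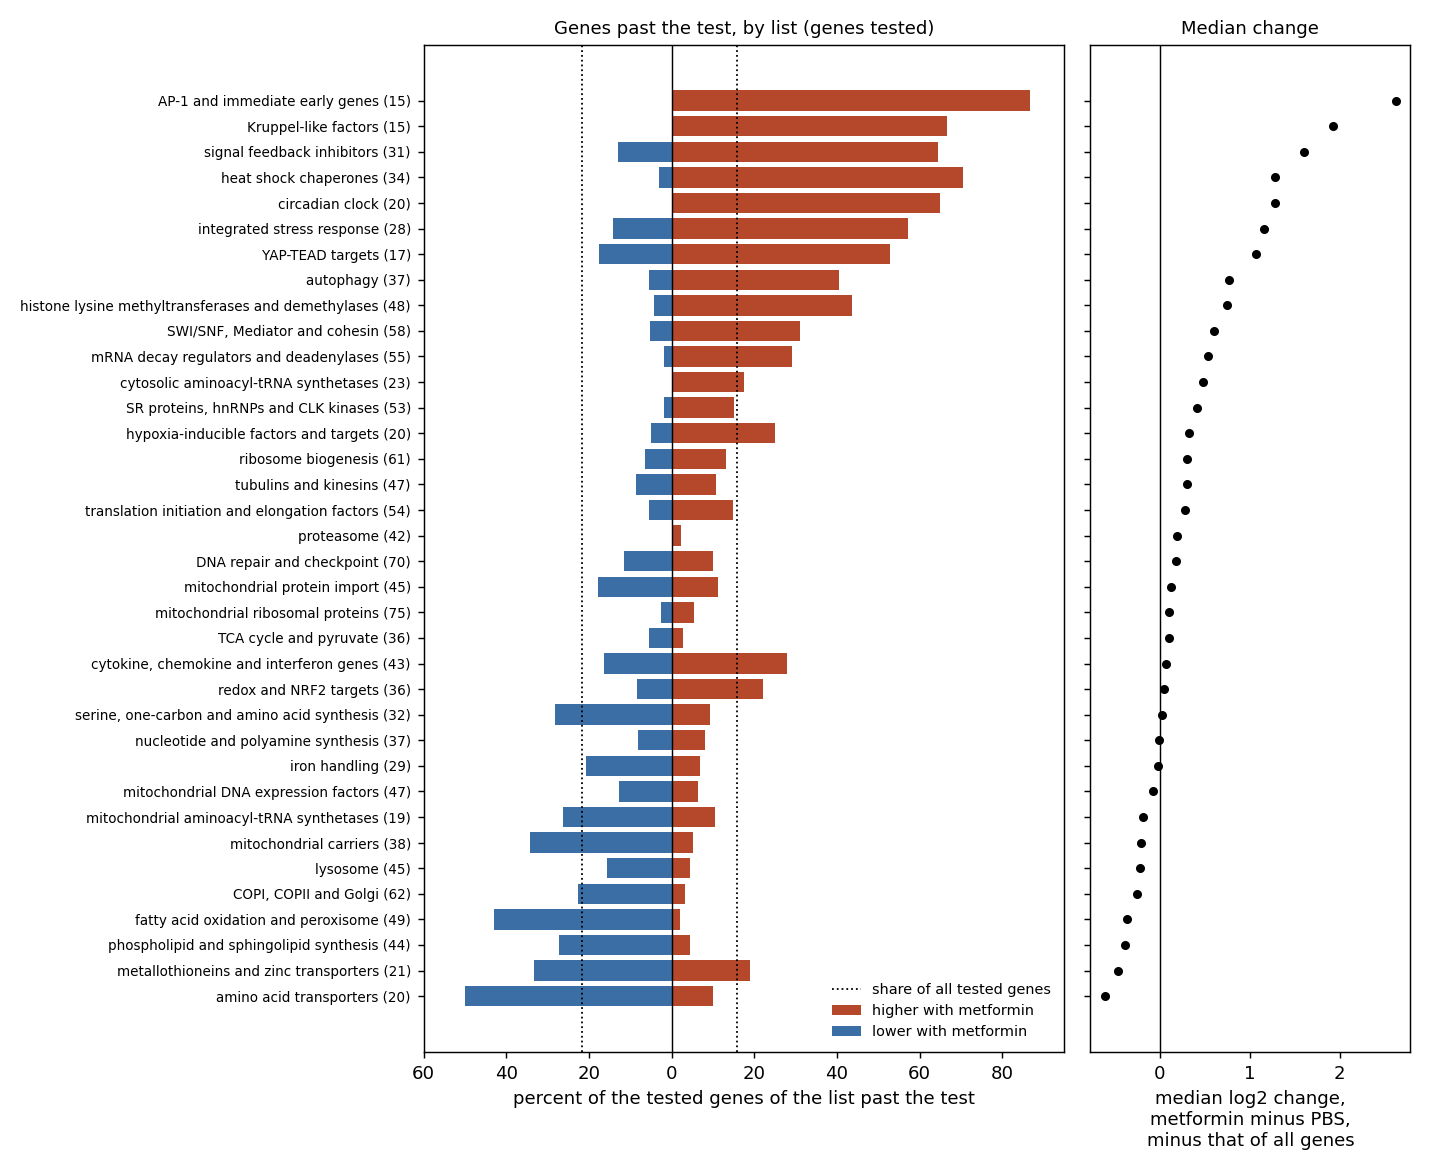
Percent of the tested genes of each of 36 lists that were higher (right) or lower (left) with metformin, with the number of genes tested in parentheses, and the median log2 change of each list minus that of all genes. Dotted lines give the share of all 11730 tested genes, 15.8% higher and 21.8% lower. Immediate early genes, Kruppel-like factors, feedback inhibitors and heat shock chaperones stand far to the right, and amino acid transporters lead on the left.

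Heat shock proteins, which hold or refold unfolded proteins in the cytosol and nucleus, made up 7 of the 15 largest gains in RPKM. Of 34 tested genes of this list 24 rose and 1 fell, and the median was 1.28 relative to all genes. The inducible HSP70 gene HSPA1B was at 1509, 1393 and 1444 RPKM in the metformin libraries and 68.3, 66.4 and 58.0 RPKM in the PBS libraries, a log2 change of 4.68 with an SE of 0.06 (limma, adjusted p = 3.8e-09). All 3 metformin libraries lay far above all 3 PBS libraries, and in 84.5% of all genes the groups did not overlap. The copy HSPA1A, which is nearly identical, was below 1 RPKM in all 6 libraries, so how the reads of the pair were divided is uncertain. DNAJB1, the HSP40 partner that hands substrates to HSP70, was at 393, 361 and 371 RPKM with metformin and 12.2, 12 and 11.9 RPKM with PBS (5.14, adjusted p = 3.4e-10 by limma). The nucleotide exchange factor HSPH1 was at 381, 372 and 356 RPKM with metformin and 53.8, 57.6 and 52.6 RPKM with PBS. The small heat shock protein genes HSPB1 and HSPB8 rose by 2.23 and 5.37 on the log2 scale. HSPB1 was at 1024 ± 79.6 RPKM with metformin, against 249 ± 29.2 RPKM with PBS (SD, n = 3 each). HSPB8 was under 1 RPKM in all PBS libraries and passed the expression limit only through metformin. The inducible HSP90 gene HSP90AA1 rose more (2.10) than the constitutive HSP90AB1 (0.82), whose call was lost without centring (0.63, limma adjusted p = 0.42). The constitutive HSP70 gene HSPA8 was at 697 ± 27.0 RPKM with metformin and 398 ± 4.08 RPKM with PBS, a change of 0.99 that was lost under quantile normalization (0.67, limma adjusted p = 0.086). HSPA6, an HSP70 gene that is silent in most unstressed cells and has a close copy in HSPA7, was at 3.10, 2.07 and 1.95 RPKM with metformin and 0.0253, 0 and 0 RPKM with PBS. HSPA1L was the gene of the list that fell, with 0.446, 0.288 and 0.484 RPKM with metformin and 1.81, 1.90 and 1.87 RPKM with PBS.

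**Figure D2:**
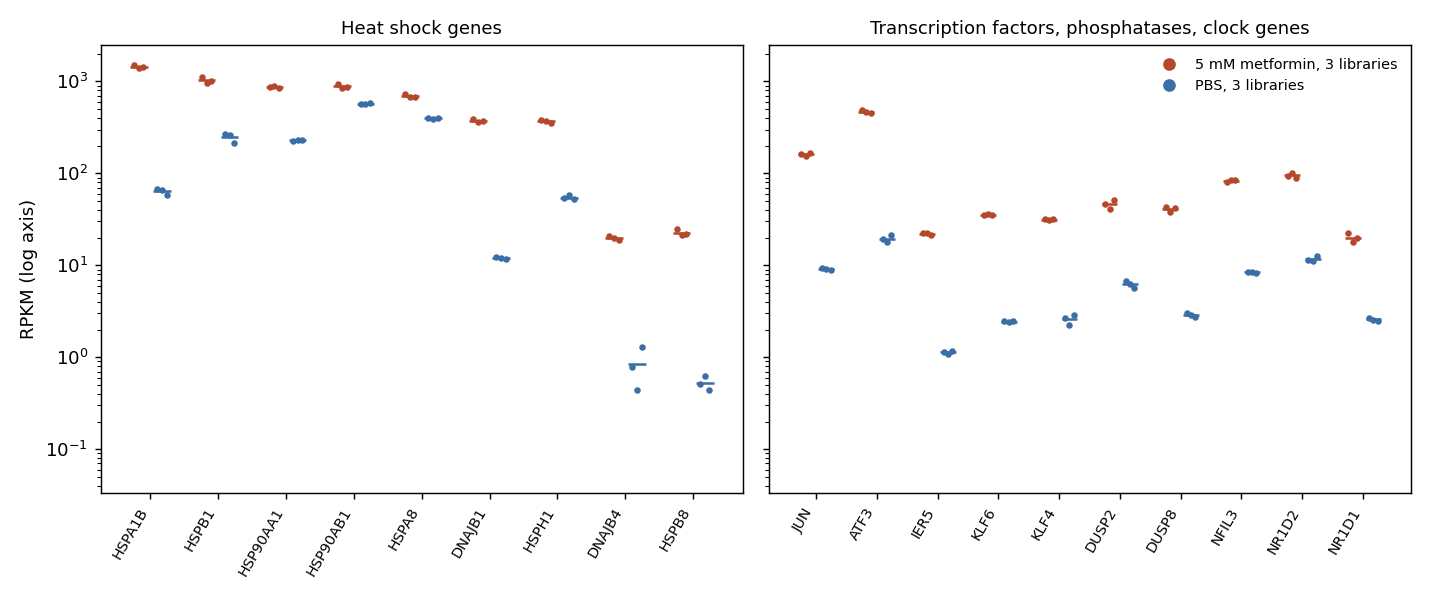
RPKM on a log axis in each of the 3 metformin libraries (left of each pair) and the 3 PBS libraries (right), with a bar at the mean of each group. These 19 genes were chosen among those that rose, and in each the groups do not overlap (84.5% of all genes). The log2 changes are largest for HSPB8, DNAJB1 and DNAJB4 among the chaperones (left panel) and for ATF3, IER5 and JUN in the right panel.

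The promoters of several of these genes carry the letters of the heat shock element, the inverted repeat bound by HSF1, and they are shown because genes with large rises are among them. The stretches below are RefSeq sequence of GRCh38.p14, read on the strand of the gene, with capitals for the searched letters GAANNTTC in the first 4 and for the cyclic AMP response element TGACGTCA in DUSP1. HSPA1B is at chr6:31827613-31827660 (+), HSPB8 at chr12:119178823-119178870 (+), HSPA6 at chr1:161524340-161524498 (+), JUN at chr1:58784170-58784217 (-) and DUSP1 at chr5:172771293-172771340 (-).
HSPA1B: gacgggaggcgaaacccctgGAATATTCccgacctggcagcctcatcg
HSPB8: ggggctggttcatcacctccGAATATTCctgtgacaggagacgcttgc
HSPA6: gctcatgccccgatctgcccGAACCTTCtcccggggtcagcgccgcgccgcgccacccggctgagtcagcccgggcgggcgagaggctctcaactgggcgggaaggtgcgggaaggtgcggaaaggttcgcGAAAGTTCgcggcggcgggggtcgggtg
JUN: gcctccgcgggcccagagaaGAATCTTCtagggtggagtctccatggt
DUSP1: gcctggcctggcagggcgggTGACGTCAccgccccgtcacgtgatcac
The searched letters begin 105 bases before the start in HSPA1B, 88 in HSPB8 and 150 in JUN, and HSPA6, which is not in the heat shock list, carries them at 2 places. Within the window of 250 bases before to 50 bases after the start, on either strand, GAANNTTC was found in 8 of 29 promoters of the tested heat shock genes, among them HSPA1L, the gene that fell, and in 2 of 12 of the immediate early genes, IER5 and JUN. It was present in 9.17% of 240 promoters of genes at least 4-fold higher, 5.68% of 264 promoters of genes at least 4-fold lower and 4.34% of all 8858 promoters matched. DNAJB1 has no match to these letters in the window. For the AP-1 site TGAGTCA the shares were 6.25%, 4.55% and 2.69% in the same order. The TATA box TATAAA was found in 10.8% of the promoters at least 4-fold higher and 10.2% of those at least 4-fold lower, against 5.19% of all, and the ETS site CCGGAAG in 10.0% and 10.2%, against 21.2% of all. The CHOP-ATF composite site TGATGCAA (0.417%, 0.379% and 0.497%), the E-box CACGTG (15.4%, 10.2% and 11%), the TEAD site GGAATG (13.8%, 12.9% and 10.3%), the palindromic NRF1 site (2.08%, 1.89% and 2.64%), the CCAAT box (38.8%, 37.1% and 37.9%) and the cyclic AMP response element (3.75%, 3.79% and 3.52%) were searched in the same way, and none of these motifs contains another. A match to these letters is a description of the sequence and not a measured binding site.

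Other parts of protein quality control moved less uniformly. The proteasome, which degrades ubiquitin-tagged proteins, had 1 of 42 genes higher, namely PSMA6, and 0 lower. The count of higher genes was 6 when the median change of all genes was set to 0 and 2 without PBS replicate 3 or metformin replicate 3. PSMA6 was at 13.7, 7.29 and 13.9 RPKM with metformin and 2.75, 3.45 and 2.90 RPKM with PBS. The related subunit gene PSMA7 was at 87.3 ± 4.91 RPKM with metformin and 104 ± 3.68 RPKM with PBS. Why PSMA6 was so much lower than PSMA7 was not tested. POMP, the assembly factor of the proteasome, was at 116 ± 4.04 RPKM with metformin and 121 ± 2.38 RPKM with PBS and did not pass the test (0.13, limma, adjusted p = 1.00). Of 37 autophagy genes 15 rose and 2 fell (median 0.77 relative to all genes). The cargo receptor gene SQSTM1 was at 141, 128 and 144 RPKM with metformin and 49.7, 47.1 and 48.0 RPKM with PBS. RB1CC1 and UVRAG, whose products act in the initiation and maturation of autophagosomes, rose by 1.84 and 2.19, whereas ATG9A, the membrane carrier of the forming autophagosome, fell by 1.5 on the log2 scale. Lysosomal genes fell in 7 of 45 and rose in 2, smaller shares than the 21.8% and 15.8% of all genes. The acid lipase gene LIPA was at 2.87, 2.42 and 2.76 RPKM with metformin and 15.8, 15.4 and 16.3 RPKM with PBS, and GAA, which degrades glycogen in lysosomes, fell by 1.46. The count of lower lysosomal genes was 13 without centring, and that of higher ones was 1 without PBS replicate 3 or metformin replicate 3.

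Immediate early genes, which respond to signals without new protein synthesis, and their relatives rose almost as a block. Of 15 tested genes of AP-1 and the immediate early group 13 rose, 2 of them under 1 RPKM in all PBS libraries, and 0 fell, while a further 13 were below the expression limit. The median was 2.63 relative to all genes, the highest of these 36 lists. The AP-1 subunit gene JUN was at 163, 154 and 168 RPKM with metformin and 9.39, 9.12 and 8.98 RPKM with PBS (4.31, limma, adjusted p = 3.4e-10). ATF3, a repressor of the same bZIP class, was at 483, 469 and 458 RPKM with metformin and 19.3, 18.1 and 21.3 RPKM with PBS. IER5, a regulator of HSF1, and CSRNP1, a nuclear protein induced by AXIN1, rose by 4.35 and 3.64. IER2 did not pass, with a change of -0.26. Among the Kruppel-like zinc finger factors and their SP relatives 10 of 15 rose and 0 fell. KLF6 was at 35.6, 36.3 and 35.0 RPKM with metformin and 2.45, 2.39 and 2.47 RPKM with PBS, KLF4 rose by 3.75 and KLF5 by 2.54, while KLF15 was at 11.5 ± 0.917 RPKM with metformin and 14.6 ± 0.631 RPKM with PBS (-0.16, not past the test).

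Genes whose products switch signaling off rose alongside. Of 31 tested feedback inhibitors 20 rose, 4 of them under 1 RPKM in all PBS libraries, and 4 fell (2 with a pseudocount of 1). The DUSP family, dual-specificity phosphatases that inactivate MAP kinases or dephosphorylate other substrates, had the highest median of the 94 symbol families examined (0.96 relative to all genes), with 9 of 16 members higher and 3 lower. Besides DUSP1, whose promoter is shown above, DUSP8 was at 42.7, 37.9 and 41.8 RPKM with metformin and 3.02, 2.85 and 2.73 RPKM with PBS, and DUSP2 at 46.5, 40.5 and 51.6 RPKM with metformin and 6.74, 6.32 and 5.63 RPKM with PBS. Of the lower members, DUSP7, which acts on ERK, fell by 1.68 and DUSP22 by 1.29. The share of lower members (18.8%) was below the 21.8% of all genes. TNFAIP3, an inhibitor of NF-κB, was at 2.18, 2.29 and 2.53 RPKM with metformin and 0.156, 0.216 and 0.130 RPKM with PBS. LRIG1, which lowers ErbB receptors at the surface, and SOCS2, an inhibitor of cytokine signaling, fell by 1.15 and 1.05. With a pseudocount of 1 SOCS2 no longer passed (-0.67, limma adjusted p = 0.47).

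Of 17 tested targets of YAP and TEAD, the output of the Hippo pathway, 9 rose and 3 fell, but 4 of those that rose were under 1 RPKM in all PBS libraries and the 3 that fell were under 1 RPKM in all metformin libraries, so that they could only be included by differing. A further 11 genes of the list were below the expression limit. Of 8 with at least 1 RPKM in all 6 libraries 5 were higher and 0 lower, against 16.6% and 15.4% of all 9810 such genes. With a mean of at least 5 RPKM 3 of 5 were higher and 0 lower, but that mean can also be reached through 1 group alone. AMOTL2, which binds YAP, was at 9.84, 8.38 and 8.08 RPKM with metformin and 0.325, 0.205 and 0.296 RPKM with PBS, and CTGF, a matricellular protein, was at 2.00, 1.83 and 1.69 RPKM with metformin and under 0.1 RPKM in each PBS library. In contrast, FSTL1, which encodes a secreted glycoprotein, was at 0.507, 0.447 and 0.501 RPKM with metformin and 3.54, 3.90 and 3.29 RPKM with PBS. Genes of the circadian clock rose in 13 of 20 and fell in 0 (median 1.28 relative to all genes). The nuclear receptor genes NR1D1 and NR1D2, which repress BMAL1, were among them. NR1D2 was at 94.8, 102 and 89.8 RPKM with metformin and 11.4, 11.1 and 12.7 RPKM with PBS, and NR1D1 at 22.3, 17.8 and 20.0 RPKM with metformin and 2.70, 2.55 and 2.48 RPKM with PBS. The D-box repressor gene NFIL3 was at 81.1, 85.1 and 84.7 RPKM with metformin and 8.37, 8.42 and 8.33 RPKM with PBS, and C1orf51 (CIART), a repressor of the CLOCK complex, rose by 3.06. BHLHE40 and CSNK1E did not pass (0.60 and -0.17). All libraries were taken at a single time after exposure, so these values give levels and not a rhythm.

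The integrated stress response, in which phosphorylated eIF2α favors translation of ATF4, was higher in most of its tested genes. Of 28 tested genes 16 rose and 4 fell (57.1% and 14.3%, against 15.8% and 21.8% of all genes). The median was 1.16 relative to all genes. PPP1R15A (GADD34), which directs dephosphorylation of eIF2α, was at 37.1, 31.6 and 32.6 RPKM with metformin and 1.92, 1.68 and 1.97 RPKM with PBS. DDIT3 (CHOP), a transcription factor of prolonged stress, was at 315, 322 and 369 RPKM with metformin and 58.1, 49.5 and 63.4 RPKM with PBS, and its target TRIB3 at 284, 262 and 291 RPKM with metformin and 60.5, 54.7 and 63.2 RPKM with PBS. The mRNA of ATF4 itself was at 251 ± 20.7 RPKM with metformin and 228 ± 13.5 RPKM with PBS and did not pass the test (0.33, limma, adjusted p = 1.00). The members that fell are also known as ATF4 targets. CHAC1, a glutathione-degrading enzyme, was at 4.95, 4.02 and 4.89 RPKM with metformin and 18.8, 18.1 and 18.6 RPKM with PBS (-1.80, limma, adjusted p = 1.6e-06). DDIT4 (REDD1), an inhibitor of mTORC1, was at 27.0, 24.9 and 28.9 RPKM with metformin and 107, 101 and 102 RPKM with PBS (-1.75, limma, adjusted p = 2.2e-07). STC2, a secreted glycoprotein, and VLDLR, a lipoprotein receptor, fell by 1.11 and 1.28. In each of these the 3 metformin libraries lay below the 3 PBS libraries, and in 84.5% of all genes the groups did not overlap.

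**Figure D3:**
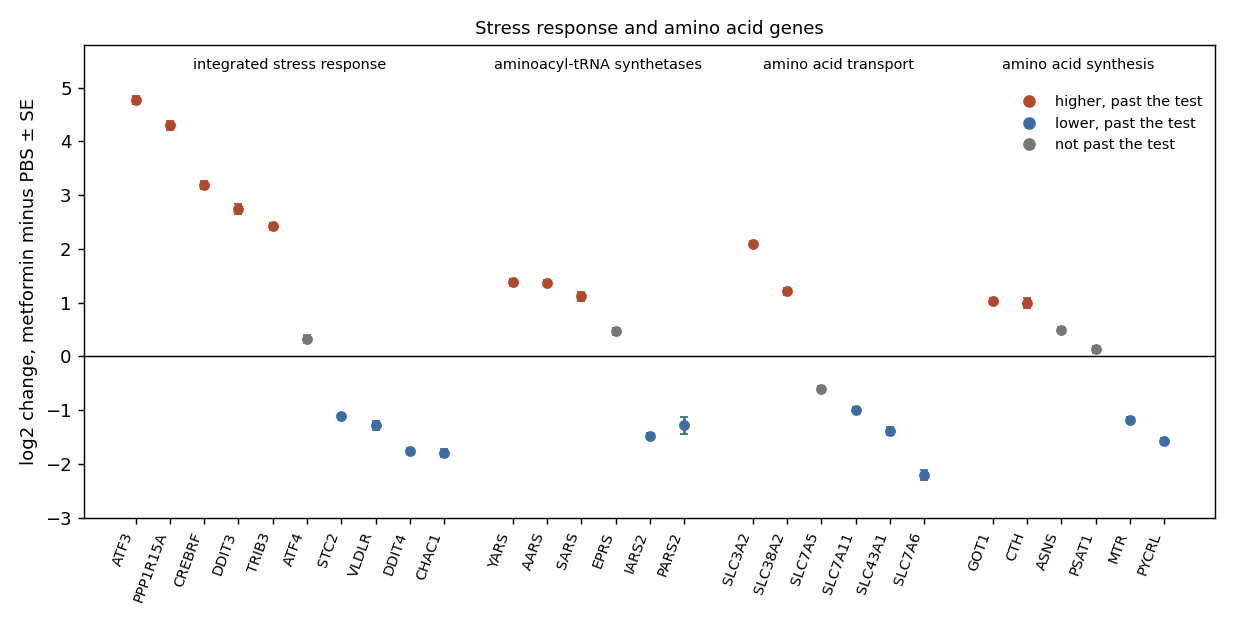
Log2 change, metformin minus PBS, with its SE (3 libraries per group) for named genes of the integrated stress response, aminoacyl-tRNA synthetases, amino acid transport and amino acid synthesis. Points range from 4.77 for ATF3 to -2.20 for SLC7A6, and each of the 4 groups has members on both sides of 0.

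Genes of amino acid supply, many of them ATF4 targets, moved in both directions as well. Of 20 amino acid transporters 2 rose and 10 fell (10% and 50%, against 15.8% and 21.8% of all genes). Their median was -0.61 relative to all genes, the lowest of these 36 lists. Solute carriers at large were lower to a like extent, with 51% of 192 SLC symbols lower and a median of -0.71 relative to all genes. SLC3A2, the heavy chain shared by several exchangers, was at 246, 229.9 and 231 RPKM with metformin and 64.3, 61.5 and 61.9 RPKM with PBS, and the glutamine transporter gene SLC38A2 rose by 1.21. Of the light chains that pair with SLC3A2, SLC7A11, the cystine-glutamate exchanger, was at 19.8, 19.6 and 19.9 RPKM with metformin and 42.8, 44.6 and 47.1 RPKM with PBS. SLC7A6 and SLC7A8 fell by 2.20 and 1.64, and SLC7A5 did not pass (-0.60). SLC43A1, a carrier of branched-chain amino acids, fell by 1.39. In serine, one-carbon and amino acid synthesis 3 of 32 genes rose and 9 fell (9.38% and 28.1%, against 15.8% and 21.8% of all genes). PSAT1, of the serine pathway, was at 233 ± 7.38 RPKM with metformin and 242 ± 19.5 RPKM with PBS, and asparagine synthetase, ASNS, at 113 ± 3.14 RPKM with metformin and 91.8 ± 6.57 RPKM with PBS, and neither passed (0.14 and 0.49). The aspartate aminotransferase gene GOT1 rose by 1.03, and PYCRL, of proline synthesis, and the methionine synthase gene MTR fell by 1.57 and 1.18. Cytosolic aminoacyl-tRNA synthetases, which charge tRNAs, rose in 4 of 23, a share (17.4%) close to the 15.8% of all genes, and fell in 0. AARS was at 236, 238 and 256 RPKM with metformin and 107, 105 and 109 RPKM with PBS, and YARS and SARS rose by 1.38 and 1.12. Their mitochondrial counterparts rose in 2 of 19 and fell in 5 (10.5% and 26.3%, against 15.8% and 21.8% of all genes). IARS2 was at 21.4, 21.5 and 20.4 RPKM with metformin and 66.9, 65.7 and 69.1 RPKM with PBS. Without PBS replicate 1 the lower mitochondrial synthetases numbered 3, and without PBS replicate 2 the higher ones 1.

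Genes that control mRNA turnover rose in 16 of 55 and fell in 1. The endonuclease gene ZC3H12A (regnase-1), which cleaves inflammatory mRNAs, was at 23.2, 20.5 and 21.8 RPKM with metformin and 4.87, 4.96 and 3.91 RPKM with PBS. ZFP36L2 and ZFP36L1, which bind AU-rich elements and recruit deadenylases, rose by 2.68 and 1.45 on the log2 scale, ZFP36L2 from under 1 RPKM in all PBS libraries. PATL1, a scaffold of decapping, rose by 2.06. The deadenylase scaffold CNOT1 was at 30.7 ± 0.516 RPKM with metformin and 25.5 ± 0.766 RPKM with PBS and did not pass (0.46). The lower genes numbered 2 without metformin replicate 2 and 6 without centring. Among SR proteins, hnRNPs and CLK kinases 8 of 53 rose and 1 fell, a share of higher genes close to that of all genes (14 were higher when the median change of all genes was set to 0). CLK1, a kinase of SR proteins, was at 56.1, 55.2 and 47.0 RPKM with metformin and 13.9, 14.5 and 14.3 RPKM with PBS, and TRA2B and RBM5 rose by 1.23 and 1.28. In the translation machinery 8 of 54 factors rose, a share close to the 15.8% of all genes, and 3 fell, a smaller share than 21.8%. EIF1 and EIF5, which govern start codon choice, rose by 1.46 and 1.20. EEF2K, the kinase that inhibits elongation factor 2 and is itself controlled by AMP-activated protein kinase and mTORC1, was at 1.07, 1.26 and 1.39 RPKM with metformin and 6.94, 7.33 and 6.81 RPKM with PBS. Its substrate EEF2 was at 688 ± 44.5 RPKM with metformin and 723 ± 29.1 RPKM with PBS (0.12, not past the test), and the translation repressor gene EIF4EBP2 fell by 1.38. In ribosome biogenesis 8 of 61 genes rose and 4 fell, smaller shares (13.1% and 6.56%) than those of all genes. The RNA polymerase I factor gene TAF1D (1.57) and the export adaptor gene NMD3 (1.5) rose. POLR1A, the largest subunit of that polymerase, fell (-0.90). The counts of this list were 13 higher with the median change of all genes set to 0, and 7 lower without centring.

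The mRNAs encoded by the mitochondrial genome are cut from long polycistronic transcripts, and they did not change in proportion. Together the 13 took 12.7% to 13.6% of the summed RPKM in the metformin libraries and 23.3% to 24.8% in the PBS libraries. Of these, 9 fell past the test and 4 did not pass. MT-CO3 was at 714, 745 and 708 RPKM with metformin and 7425, 7386 and 6939 RPKM with PBS (-3.14), and MT-ND3, which follows it on the genome, at 254, 305 and 255 RPKM with metformin and 1880.5, 1881 and 1778 RPKM with PBS (-2.58). The other 2 subunits of the same enzyme, cytochrome c oxidase, had smaller changes. MT-CO1 was at 6187, 6711 and 6729.7 RPKM with metformin and 9064, 9306 and 8738 RPKM with PBS (-0.28), and MT-CO2 at 5905, 6132 and 6449.6 RPKM with metformin and 8068, 8153 and 7478 RPKM with PBS (-0.17). The same division ran through complex I, where MT-ND2, MT-ND1, MT-ND5 and MT-ND6 fell by 2.09, 2.01, 1.84 and 1.55, whereas MT-ND4 and MT-ND4L, which share a transcript, had -0.31 and -0.55 and did not pass. MT-ATP8, MT-ATP6 and MT-CYB lay between, with -1.48, -1.44 and -1.35. Under quantile normalization, which forces the highest values to be alike, these 3 did not pass (limma, adjusted p of 0.83, 1 and 1), and MT-ND4 and MT-ND4L became higher, at 0.71 and 0.77 (limma, adjusted p of 0.00015 and 2.7e-05). All 3 metformin libraries lay below all 3 PBS libraries in each of the 13 as deposited, where the groups did not overlap in 84.5% of all genes and the median change of all genes was -0.30. The sources used here do not say if strand was used in counting, so MT-ND6, on the opposite strand to the others, is uncertain.

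**Figure D4:**
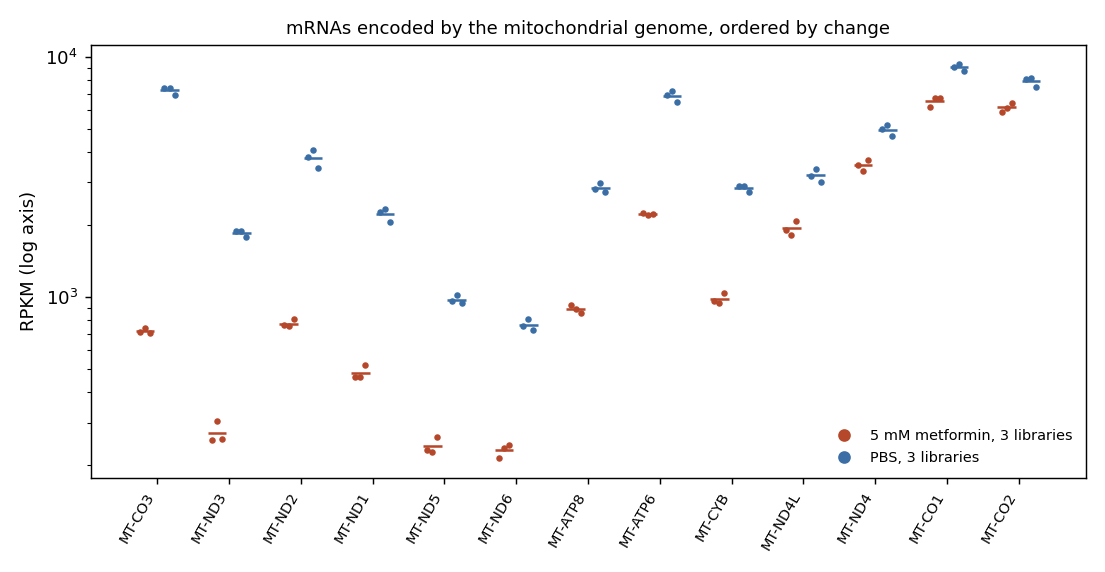
RPKM on a log axis of the 13 mRNAs encoded by the mitochondrial genome in the 3 metformin libraries (left of each pair) and the 3 PBS libraries (right), with a bar at each mean, ordered by log2 change. The gap narrows from MT-CO3, with 708 to 745 RPKM with metformin against 6939 to 7425 RPKM with PBS, to MT-CO2, with 5905 to 6450 RPKM with metformin against 7478 to 8153 RPKM with PBS.

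Nuclear genes for mitochondrial functions gave mixed counts. Mitochondrial ribosomal protein genes rose in 4 of 75 and fell in 2, fewer in both directions than the 15.8% and 21.8% of all genes, with 7 higher when the median change of all genes was set to 0 and 1 higher and 4 lower without centring. Of 47 factors for the expression of mitochondrial DNA 3 rose and 6 fell, also smaller shares than those of all genes. TFB2M, a subunit of the mitochondrial transcription machinery, was at 5.92, 5.04 and 5.46 RPKM with metformin and 20.9, 20.1 and 21.7 RPKM with PBS, and FASTKD1, of a family that binds mitochondrial RNA, fell by 1.63. The nuclear regulators NRF1 and GABPB1 rose by 1.42 and 1.44. Protein import genes rose in 5 of 45 and fell in 8 (11.1% and 17.8%), again below the shares of all genes. The matrix chaperone genes HSPD1 and HSPA9 were among those that rose, HSPD1 to 407 ± 13.9 RPKM with metformin, against 226 ± 12.3 RPKM with PBS, and HSPA9 to 228 ± 7.88 RPKM with metformin, against 106 ± 6.84 RPKM with PBS. PMPCA, of the protease that removes import signals, and TIMM21, of the inner membrane translocase, fell by 1.62 and 1.87. Mitochondrial carriers fell in 13 of 38 and rose in 2 (34.2% and 5.26%, against 21.8% and 15.8% of all genes). The 2 that rose, SLC25A25 (2.70) and SLC25A24 (1.84), both encode calcium-dependent carriers of ATP-magnesium and phosphate. SLC25A25 was at 56.9, 55.6 and 57.8 RPKM with metformin and 10.3, 9.97 and 9.5 RPKM with PBS. SLC25A29, a carrier of basic amino acids, fell by 2.03, and the ADP-ATP carrier SLC25A5 did not pass (0.29). Of the 13 lower carriers 3 were under 1 RPKM in all metformin libraries. With a mean of at least 5 RPKM 4 of 23 carriers were lower, against 13.8% of all such genes.

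Few genes of the TCA cycle and pyruvate metabolism passed the test, with 1 of 36 higher and 2 lower, and these 3 act on the same switch, both lower genes being under 1 RPKM in all metformin libraries. PDP1, the phosphatase that activates pyruvate dehydrogenase, was at 10.9, 11.1 and 10.2 RPKM with metformin and 2.73, 2.53 and 2.84 RPKM with PBS. The kinase genes PDK3 and PDK2, which inactivate the enzyme, were lower, PDK3 at 0.942, 0.770 and 0.917 RPKM with metformin and 5.59, 6.03 and 5.33 RPKM with PBS and PDK2 with a change of -1.46. Genes of fatty acid oxidation and the peroxisome fell in 21 of 49 and rose in 1 (median -0.37 relative to all genes), and 5 of the 21 were under 1 RPKM in all metformin libraries. CROT, which prepares medium-chain acyl groups for export from peroxisomes, was at 0.863, 0.707 and 0.822 RPKM with metformin and 4.48, 4.64 and 4.44 RPKM with PBS. The peroxisome biogenesis gene PEX11A fell by 1.87, and PEX13 was the gene that rose (1.30). The abundant ACADVL and ECHS1 did not pass, at -0.43 and -0.16. In phospholipid and sphingolipid synthesis 12 of 44 genes fell and 2 rose (27.3% and 4.55%, against 21.8% and 15.8% of all genes). LPCAT3 and LPCAT1, which put acyl chains into phosphatidylcholine, fell by 2.70 and 2.54. DEGS1, which makes ceramide from dihydroceramide, was at 34.0, 31.1 and 34.5 RPKM with metformin and 166, 175 and 155 RPKM with PBS, and the ceramide synthase gene CERS4 fell by 2.29, while CERS2 did not pass (-0.33). The count of lower genes was 20 without centring and 6 among genes with a mean of at least 5 RPKM, and that of higher genes was 1 without PBS replicate 1. For nucleotides and polyamines 3 of 37 genes rose and 3 fell (8.11% each way), below the shares of all genes. AZIN1, which protects ornithine decarboxylase, rose by 1.81. DHODH, the enzyme of pyrimidine synthesis in the inner mitochondrial membrane, was at 1.42, 1.4 and 1.64 RPKM with metformin and 5.03, 5.06 and 4.59 RPKM with PBS. The lower genes numbered 6 without centring and 1 without PBS replicate 1, and the higher genes 5 without PBS replicate 3.

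Genes of metal handling moved in both directions. Metallothioneins, which bind zinc and copper, and the zinc exporter SLC30A1 rose. These 4 were the higher genes of 21 tested in this list, of which 7 fell (19.0% and 33.3%, against 15.8% and 21.8% of all genes). Of the SLC symbols, which include the zinc transporters, 51% were lower. MT2A was at 155, 146 and 208 RPKM with metformin and 37.7, 33.9 and 32.9 RPKM with PBS, MT1F at 32.3, 31.9 and 42.9 RPKM with metformin and 5.57, 4.63 and 6.01 RPKM with PBS, and MT1X rose by 2.58, though metallothionein genes are so alike that reads may be shared between them. SLC30A1, of the plasma membrane, was at 34.6, 34.8 and 38.3 RPKM with metformin and 8.5, 8.32 and 8.56 RPKM with PBS. The transporters that fell included SLC30A7 and SLC30A6, which load the secretory pathway with zinc, by 1.4 and 1.21, SLC30A4 by 1.12 and the importer SLC39A6 by 1.07. Of 36 redox genes 8 rose and 3 fell (22.2% and 8.33%, against 15.8% and 21.8% of all genes). Sulfiredoxin, SRXN1, was at 14.6, 16.3 and 17.8 RPKM with metformin and 3.42, 3.62 and 3.47 RPKM with PBS, thioredoxin reductase, TXNRD1, rose by 1.63 and heme oxygenase, HMOX1, by 1.79. BACH1, the repressor of these NRF2 targets, also rose, with 25.8, 28.3 and 25.8 RPKM with metformin and 4.49, 4.51 and 4.99 RPKM with PBS. The peroxiredoxin genes PRDX1 and PRDX6 did not pass (-0.38 and -0.38). Without centring 5 redox genes were higher. Of 29 iron genes 2 rose and 6 fell. The lower share (20.7%) was close to the 21.8% of all genes, and the median was -0.02 relative to all genes. The metalloreductase genes STEAP2 and STEAP1 fell by 2.01 and 0.89, and FBXL5, which targets iron regulatory protein IRP2 for degradation, rose by 1.22. Among 20 genes of the hypoxia list 5 rose and 1 fell, and a further 8 were below the expression limit. P4HA2, a collagen prolyl hydroxylase gene, rose by 2.58 and EPAS1 (HIF-2α) by 2.21. BNIP3 and P4HA1 did not pass (0.11 and -0.16), and PFKFB4 fell by 1.86. EPAS1 was under 1 RPKM in all PBS libraries and PFKFB4 in all metformin libraries, so each passed the limit only through 1 group. Of 17 with at least 1 RPKM in all 6 libraries 4 were higher and 0 lower, against 16.6% and 15.4% of all 9810 such genes. With a mean of at least 5 RPKM 2 of 14 were higher and 0 lower.

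Chromatin regulators were higher in many cases. Of 48 histone lysine methyltransferases and demethylases 21 rose and 2 fell (median 0.75 relative to all genes). The JmjC-domain gene JMJD1C was at 50.1, 57.5 and 49.5 RPKM with metformin and 8.30, 8.70 and 8.92 RPKM with PBS. The H3K9 demethylase gene KDM3A and the H3K36 methyltransferase gene SETD2 rose by 1.94 and 1.86. The H3K27 demethylase gene KDM6A was at 73.5, 69.1 and 70.9 RPKM with metformin and 36.3, 37.3 and 37.5 RPKM with PBS, and LSD1, KDM1A, did not pass (-0.35). Within the KDM symbol family 8 of 16 were higher and 0 lower. Of 58 genes of SWI/SNF, Mediator and cohesin 18 rose and 3 fell, and without centring 6 were lower. ARID1A, the DNA-binding subunit of the canonical SWI/SNF complex, was at 68.4, 68.2 and 70.7 RPKM with metformin and 15.5, 15.2 and 15.5 RPKM with PBS (2.35, limma, adjusted p = 1.1e-08). The kinase module subunit MED13L rose by 2.02, whereas the SWI/SNF genes SMARCD2 and SMARCA2 fell by 1.75 and 1.29, and SMARCB1 did not pass (0.65). DNA repair and checkpoint genes rose in 7 of 70 and fell in 8, shares below those of all genes. The counts were 4 higher without centring, 5 lower with a pseudocount of 1, and 1 lower of 33 with a mean of at least 5 RPKM. HUS1 (1.27) and CHEK1 (1.22) were higher, and the glycosylase gene NEIL1 (-2.15) and the nuclease gene ERCC4 (-1.41) lower. NEIL1 was under 1 RPKM in all metformin libraries. PARP1, the poly(ADP-ribose) polymerase that senses DNA breaks, was not in that list and was among the 25 largest falls, at 5.74, 4.91 and 7.21 RPKM with metformin and 46.8, 46.6 and 47.4 RPKM with PBS (-2.79, limma, adjusted p = 5.2e-07).

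The cytoskeleton and surface genes gave mixed counts. Of 47 tubulins and kinesins 5 rose and 4 fell, smaller shares (10.6% and 8.51%) than those of all genes. The counts were 9 higher under quantile normalization and 2 lower without PBS replicate 1. The chromokinesin gene KIF4A was higher (1.37) and the minus-end motor gene KIFC1 lower (-1.02). Among 43 cytokine, chemokine and interferon genes 12 rose and 7 fell (27.9% and 16.3%, against 15.8% and 21.8% of all genes). However, 6 of those that rose were under 1 RPKM in all PBS libraries and 2 of those that fell in all metformin libraries. Of 34 with at least 1 RPKM in all 6 libraries 6 rose and 5 fell, close to the 16.6% and 15.4% of all 9810 such genes. A further 25 were below the expression limit. The interferon-inducible GTPase gene GBP1 was at 4.6, 4.55 and 4.61 RPKM with metformin and 0.130, 0.101 and 0.144 RPKM with PBS, and TNFRSF12A, the receptor of TWEAK, at 34.4, 32.5 and 31.3 RPKM with metformin and 1.69, 1.76 and 1.42 RPKM with PBS. STAT2, a subunit of the interferon-activated factor ISGF3, was at 1.80, 1.74 and 1.85 RPKM with metformin and 7.47, 7.81 and 7.20 RPKM with PBS, and TAPBP, which loads peptides onto MHC class I, fell by 1.58. B2M and HLA-C did not pass (-0.15 and -0.09), and reads of HLA genes may be shared among relatives.

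Genes of the secretory route fell about as often as all genes, and larger shares fell among those of glycan assembly and solute transport. COPI, COPII and Golgi genes fell in 14 of 62 and rose in 2, with 26 lower without centring and 22 lower under quantile normalization. KDELR2, a receptor that returns proteins to the endoplasmic reticulum, was at 11.1, 10.8 and 11.6 RPKM with metformin and 46.5, 45.7 and 47.9 RPKM with PBS, and TRAPPC1, of the tethering complex TRAPP, at 5.95, 5.59 and 6.63 RPKM with metformin and 30.7, 29.8 and 28.8 RPKM with PBS. ARF6 and SEC24B rose (1.18 and 1.22), and ARF1 did not pass (0.25). Of the 13 tested ALG symbols, most of which encode enzymes that build the lipid-linked oligosaccharide for N-glycosylation, 10 fell and 0 rose. The mannosyltransferase gene ALG3 was at 1.13, 1.34 and 1.83 RPKM with metformin and 10.4, 10.6 and 8.84 RPKM with PBS, and the glucosyltransferase genes ALG8 and ALG6 fell by 2.24 and 2.00, while ALG13 did not pass (-0.20). Of 192 tested SLC symbols, the solute carriers, 98 fell and 9 rose (51% and 4.69%), and of 12 MFSD symbols, of the major facilitator superfamily, 8 fell and 0 rose. These 3 families were singled out for medians among the 5 lowest of the 94 examined. The solute carrier SLC45A2, known from melanosomes, was at 0.139, 0.154 and 0.151 RPKM with metformin and 3.06, 3.47 and 2.67 RPKM with PBS, and SLC27A3, an acyl-CoA synthetase, at 0.0833, 0.0920 and 0.245 RPKM with metformin and 3.20, 3.61 and 2.84 RPKM with PBS. PIGM, a mannosyltransferase of GPI anchor synthesis, was at 1.88, 1.79 and 1.86 RPKM with metformin and 15.7, 16.6 and 14.6 RPKM with PBS (-2.83, limma, adjusted p = 2.7e-08), and PCYOX1, which degrades prenylcysteine, fell by 2.92. Other large falls concerned signaling and nuclear enzymes. The Hedgehog receptor gene PTCH1, a transcriptional target of its own pathway, was at 0.718, 0.709 and 0.804 RPKM with metformin and 8.5, 8.83 and 8.0 RPKM with PBS. The dNTP hydrolase gene SAMHD1 was at 0.749, 1.07 and 0.907 RPKM with metformin and 8.85, 9.09 and 8.62 RPKM with PBS, and PPP1R10 (PNUTS), which targets protein phosphatase 1 in the nucleus, at 4.23, 3.63 and 3.22 RPKM with metformin and 33.7, 33.8 and 32.8 RPKM with PBS. The serine protease gene HTRA1 and the leukotriene receptor gene LTB4R fell by 2.99 and 3.14.

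Some genes passed the expression limit clearly in 1 group and were near 0 in the other. At least 1 RPKM in all 3 metformin libraries with under 0.1 RPKM in all 3 PBS libraries was measured for 15 genes, and the reverse for another 15. The first group included FHL2, a LIM-domain cofactor, with 5.88, 5.22 and 5.94 RPKM with metformin and 0.0506, 0.0436 and 0.0692 RPKM with PBS, and CREB5, a bZIP factor, with 4.56, 4.96 and 4.62 RPKM with metformin and 0.0402, 0.0371 and 0.0281 RPKM with PBS. NOV (CCN3), a matricellular protein, was at 4.92, 3.44 and 4.38 RPKM with metformin and 0.0919, 0.0811 and 0.0736 RPKM with PBS. The second group included LCN12, a lipocalin, with 0.0692, 0.0446 and 0.0501 RPKM with metformin and 4.79, 4.64 and 4.19 RPKM with PBS, and GP1BA, a receptor known from platelets, with 0.0780, 0.0503 and 0.0564 RPKM with metformin and 1.66, 1.91 and 1.49 RPKM with PBS. SRPK3, a kinase of SR proteins known from muscle, was at 0.0823, 0.0796 and 0.0744 RPKM with metformin and 1.66, 1.84 and 1.41 RPKM with PBS. These levels are low, and folds are not given because the lower group rests on a few reads.

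Genes of long noncoding RNAs (lncRNAs) were lower far more often than protein-coding genes. By RefSeq gene type, which matched 10825 of the tested genes by name, 133 of 256 lncRNA genes fell and 15 rose (52% and 5.86%), with a median of -0.83 relative to all genes, and 1990 of 10362 protein-coding genes fell and 1760 rose (19.2% and 17%). Since lncRNAs are low and low genes fell more often, the classes were also set side by side by level. With a mean under 2 RPKM 60.5% of 119 lncRNA genes and 35.6% of 1488 protein-coding genes fell. With a mean of 2 to 5 RPKM it was 51.3% of 76 and 25.2% of 2511, and with at least 5 RPKM 36.1% of 61 and 13% of 6363. Transcribed pseudogenes fell in 46 of 137 (33.6%) and rose in 8, and with a mean of at least 5 RPKM 17.9% of 39 fell. Other pseudogenes fell in 12 of 61 (19.7%), a share close to that of protein-coding genes. LINC01106 was at 0.493, 0.998 and 1.20 RPKM with metformin and 9.07, 9.38 and 8.51 RPKM with PBS, and LINC01137 at 0.233, 0.180 and 0.202 RPKM with metformin and 3.27, 3.26 and 3.24 RPKM with PBS. ENO1-AS1, antisense to the enolase gene ENO1, was at 0.571, 0.690 and 0.464 RPKM with metformin and 5.88, 6.97 and 5.46 RPKM with PBS, though reads of overlapping genes cannot be separated without strand. Not every lncRNA moved this way, as LINC00669 was at 1.66, 1.90 and 1.85 RPKM with metformin and 0.434, 0.416 and 0.495 RPKM with PBS. The share of reads outside gene features was higher with metformin, as given above, and its part in this difference was not tested.

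**Figure D5:**
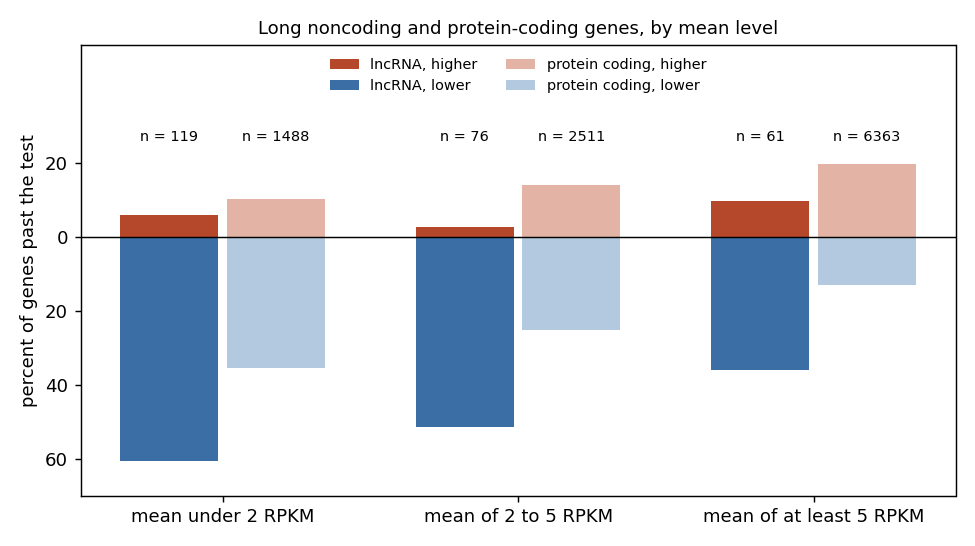
Percent of lncRNA genes (dark) and protein-coding genes (pale) called higher (above 0) or lower (below 0) with metformin in 3 ranges of mean RPKM over the 6 libraries, with the number of genes above each bar. Lower genes make up 60.5%, 51.3% and 36.1% of the lncRNAs and 35.6%, 25.2% and 13% of the protein-coding genes, from the lowest to the highest range.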

How the data were processed

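Total RNA of C4-2 cells was made into TruSeq mRNA libraries and sequenced on an Illumina HiSeq 2500. The authors mapped reads and computed expression in CLC Genomics Workbench 7.0 on the build that the submitters' notes name as GRCh37.p13. The deposited RPKM values carry no stated scaling between libraries. Neither the annotation release nor the use of strand is given in the sources used here. Phenformin libraries were not used here, and a few genes and 1 gene list are not reported here.

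Whole reads were recovered from the RPKM steps for 25529 of 25529 features above 0 (tolerance 0.01 reads). RPKM + 0.1 was log2 transformed, each library was centred on the median of its tested genes, and 3 metformin libraries were compared with 3 PBS libraries by limma 3.58.1 (R 4.3.3; lmFit and treat with trend, 1.5-fold). Python 3.11.15, numpy 2.4.6, pandas 2.3.3 and matplotlib 3.10.9 were used for descriptions and plots. The procedure was tested on simulated data (11730 genes, 200 of them changed). Alternatives tried were other pseudocounts (0.01 and 1), no filter or a mean of at least 5 RPKM, other centrings, other null hypotheses, no trend, robust, a replicate block, limma-voom on recovered reads and each library left out.

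The 42 gene lists, the members and the tests were chosen with earlier results of these data known. Of 1662 list symbols 1648 were found. Named genes were the 25 largest rises and falls among genes whose higher group averaged at least 5 RPKM, the 15 largest gains and losses in RPKM, up to 4 each way and 2 abundant others per list, 10 genes each way with at least 1 RPKM in all libraries of 1 group and under 0.1 RPKM in all of the other, and members of the 5 highest and lowest of 94 symbol families. Genes outside that rule, such as HSPA1A, are named for context. Deposited names were used as they stand. Promoters are RefSeq GRCh38.p14 sequence, matched by symbol.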

Additional observations from a re-analysis of the deposited data

How the results depend on the processing

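The counts of 1852 higher and 2559 lower genes became 4229 and 5420 against no change (limma, eBayes) and 920 and 1291 against 2-fold. Among 6685 genes with a mean of at least 5 RPKM, 1285 were higher and 924 lower. The other alternatives stayed within 1.5 times of both counts: 1367 higher and 3284 lower without centring, 2226 and 2187 with the median change of all genes set to 0 (chosen after seeing the data), 1973 and 2006 with quantile normalization and 2017 and 2598 with limma-voom on recovered reads. Leaving out 1 library gave 1689 to 1867 higher and 2298 to 2540 lower genes. The fit with the replicate block gave 1793 and 2509. Same-numbered libraries did not deviate together (correlations of -0.062 to 0.0344), and not every library correlated best with its own number. With 3 libraries per group these correlations cannot show if same-numbered samples were handled together. Of 443 genes chosen by the naming rule, 19 changed their call when 1 library was left out, and 31 lost it with a pseudocount of 1 and 33 with quantile normalization. MT-ND4 and MT-ND4L reversed under quantile normalization (0.71 and 0.77), and the cause was not tested. Calls of low genes rest on few reads. A version of PBS replicate 1 without the reads of replicates 2 and 3 was not run, because its reads were below their sum in 1624 of 23481 features.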

Other observations

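PBS replicate 1 had 44774670 mapped reads, 2.93 times the median of the other 5 libraries. Its read counts were below the sum of PBS replicates 2 and 3 in 6.92% of 23481 features, and in 19.8% of the 5595 features with 1 to 5 reads in these. Taking away the reads of both would leave 1.57e+07 mapped reads. Against the sums of pairs of metformin libraries, they were below in 19.0% to 20.4% of features. The chi-square per degree of freedom between 2 libraries, over the tested genes, was 2.89 to 4.07 within the metformin group and 2.18 to 4.59 within the PBS group, the lowest being PBS replicates 1 and 2. Values of 1 would be sampling noise alone, so no pair of libraries differed by sampling noise only.

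Symbol families of zinc finger genes were among the 5 highest medians. Of 14 tested ZSCAN symbols 5 were higher and 2 lower, and of 15 ZFP symbols 7 were higher and 2 lower, the ZFP symbols including ZFP36L2 and ZFP36L1, whose products bind RNA. ZSCAN20 was at 3.93, 3.98 and 3.52 RPKM with metformin and 1.91, 1.97 and 2.10 RPKM with PBS (1.09, limma, adjusted p = 0.00108). MALAT1 and NEAT1, lncRNAs retained in the nucleus, together took 0.231% to 0.313% of the summed RPKM with metformin and 0.165% to 0.172% with PBS.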
